A study of Mus musculus with 8 samples.

Results

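The 6 genes of eicosanoid synthesis followed here were Ptgs1, Ptgs2, Ptges, Alox5, Alox5ap and Lta4h. They were chosen by name, and all 6 had a row among the 12256 genes of the expression table. RNA came from monocyte-derived dendritic cells, sorted as CD45hiCD11b+Ly6G-Ly6C+CD11cintMHCII+ from hindbrain and spinal cord. The NPC group (4 libraries, A to D) came from mice given 1000000 neural precursor cells in 10 μL PBS, and the PBS group (4 libraries, 1 to 4) from mice given 10 μL PBS alone. All mice were C57Bl/6 animals immunized with a peptide of myelin oligodendrocyte glycoprotein, which causes experimental autoimmune encephalomyelitis (EAE), an inflammatory disease of brain and spinal cord, so no healthy group stands beside them. The sources differ on the injection: the design text and the treatment protocol call it intrathecal and the condition label "ic", and its day after clinical onset is 2 to 4 in the design text and 4 in the protocol. Cells were collected 7 days later. Every library was a separate pool of 4 to 7 mice, which hides the spread between animals, and the sources used here give neither the age of the mice nor the origin of the injected cells.

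Eicosanoids are signalling lipids made from arachidonic acid. Cyclooxygenases convert it to prostaglandin H2, from which terminal synthases make prostaglandin E2, prostaglandin D2 or thromboxane A2, while 5-lipoxygenase, helped by its activating protein FLAP, converts it to leukotriene A4, the parent of leukotriene B4 and of the cysteinyl leukotrienes. In inflamed tissue, macrophages, neutrophils and dendritic cells make both kinds of mediator, and prostaglandin E2 and leukotriene B4 act back on the migration and cytokine output of the same cells.

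Depth moved together with treatment. The NPC libraries held 2653818 to 7003542 reads and the PBS libraries 7702189 to 21068166. The 6 markers of the sort were all measured, and 0 of them had an unadjusted p under 0.05 between groups. Libraries NPC A and PBS 1 stood apart by their low immediate-early and heat-shock genes: the mean of 28 such genes was 5.38 in NPC A and 5.47 in PBS 1, against 7.01 to 7.26 in NPC B to D and 7.11 to 7.45 in PBS 2 to 4 (log2). Summed markers of 3 other cell types were lowest in the same pair. The 9 microglia markers summed to 311 reads per 1000000 in NPC A and 263 in PBS 1, against 372 to 498 in NPC B to D and 372 to 457 in PBS 2 to 4. The 4 measured of 5 oligodendrocyte markers (Mog is not in the table used here) summed to 44.2 in NPC A and 49.2 in PBS 1, against 58.4 to 73.5 in NPC B to D and 65.6 to 70.6 in PBS 2 to 4. The 3 measured of 5 B cell markers (not Cd79a or Pax5) summed to 3.44 in NPC A and 3.75 in PBS 1, against 4.39 to 10.2 in NPC B to D and 5.31 to 6.64 in PBS 2 to 4. The part of these cells in the results was not tested. Fold changes of the 6 genes and of the pathway genes Tbxas1 and Ptger4 are also given without the pair.

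Within these cells the 6 genes covered very different levels, given here on the log2 scale per kilobase of the longest annotated transcript. Alox5ap, which encodes FLAP, and Ptgs2, which encodes the inducible cyclooxygenase-2, stood highest, at 7.15 ± 0.18 and 7.12 ± 1.02 in NPC and 7.27 ± 0.12 and 6.97 ± 0.96 in PBS libraries (SD, n = 4 each). Ptgs1, the constitutive cyclooxygenase-1, followed at 4.82 ± 0.12 in NPC and 4.72 ± 0.27 in PBS libraries. Lta4h, the hydrolase that turns leukotriene A4 into leukotriene B4, averaged 3.30 ± 0.16 in NPC libraries and 3.12 ± 0.11 in PBS libraries. Ptges, the inducible prostaglandin E synthase, averaged 0.56 ± 0.31 in NPC libraries and 1.15 ± 0.53 in PBS libraries. Alox5, the 5-lipoxygenase itself, was lowest at -0.80 ± 0.19 in NPC and -1.64 ± 0.33 in PBS libraries.

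This order was the same in all 8 libraries except for its top pair. Alox5ap exceeded Ptgs2 in 4 of 8 libraries, with a per-kilobase log2 difference of -1.14 to 1.53, so the top pair could not be ordered beyond its spread. Each of the other 4 neighbouring pairs kept its order in 8 of 8 libraries. Among the 11368 genes with a transcript length, Alox5ap ranked between percentiles 97.6 and 98.2 in every library, and Ptgs2 between 92.9 and 99.0. Alox5 ranked between percentiles 1.92 and 7.20. FLAP message was therefore at the top of the range in cells whose 5-lipoxygenase message was near the bottom of it. The per-length ratio of Alox5ap to Alox5 was 260, 258, 243 and 231 in NPC A to D and 597, 493, 453 and 403 in PBS 1 to 4, as ratios of the deposited values, in which each gene carries an offset of 0.5 reads. The groups did not overlap in this ratio. Of the log2 difference of -0.96 between them, Alox5ap contributed -0.12 and Alox5, described below, the rest. The log2 ratio of Lta4h to Alox5 did overlap, at 3.40 to 3.87 in NPC and 3.86 to 4.86 in PBS libraries (not divided by length). Both ratios rest on 4 to 10 Alox5 reads in NPC and 8 to 18 in PBS libraries.

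**Figure D1:**
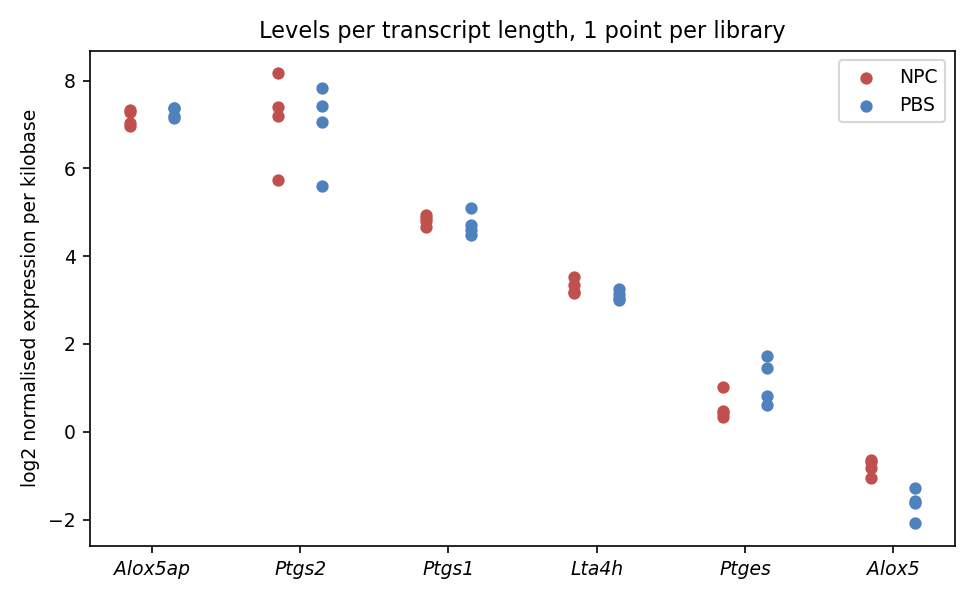
Levels per kilobase of transcript (log2) of the 6 genes, with 1 point per library, NPC (red) left of PBS (blue). Alox5ap and Ptgs2 lie at the top, Alox5 at the bottom, and Ptgs2 has the widest spread within both groups.

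Between treatments, none of the 6 genes passed the test. With limma's moderated test and Benjamini-Hochberg adjustment over all genes, 0 of 12256 genes passed an adjusted p of 0.05 (0.00%), and the same was true with voom weights. The unadjusted p was under 0.05 for 1387 genes in limma (11.3%), 735 of them higher (6.00%) and 652 lower (5.32%) in NPC libraries, and 1576 genes with voom weights. Of the 6 genes, 2 were in that set: Alox5, higher in NPC libraries, and Ptges, lower. Among the 11368 genes with a known length and GC content, 1274 had such a p as deposited (656 higher, 618 lower), and 1100 after a correction for both (364 higher, 736 lower). RNA was taken from sorted bulk samples, in which fewer cells expressing a gene and less RNA per cell cannot be told apart.

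**Figure D2:**
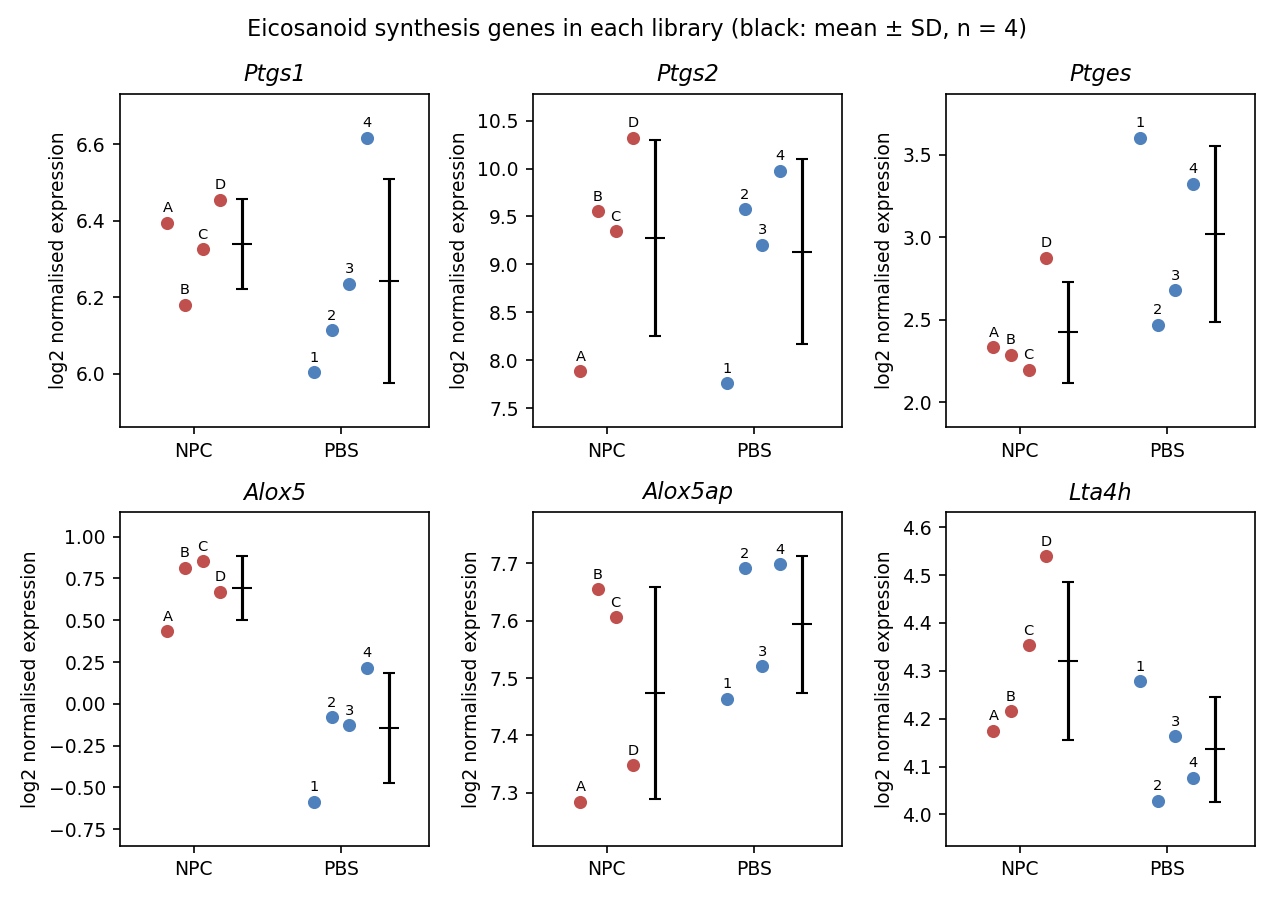
Log2 normalised expression of each gene in each library (letters and numbers are library names), NPC (red) left of PBS (blue), with mean ± SD in black. Only Alox5 has groups that do not overlap. Ptgs2 is lowest in NPC A and PBS 1.

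Of the prostaglandin genes, Ptgs1 was steady. It was at 6.40, 6.18, 6.33 and 6.46 (log2 normalised expression) in NPC A to D, against 6.01, 6.11, 6.24 and 6.62 in PBS 1 to 4. The groups overlapped: the PBS libraries reached both lower and higher than the NPC libraries, and PBS 4 was the highest. The log2 fold change was 0.10 (SE 0.14, 95% interval -0.21 to 0.40, limma adjusted p = 0.833), so a 2-fold difference in either direction lay outside the interval. It was -0.00 without PBS 1 and NPC A, and 0.22 without PBS 4. Ptgs1 lies on chromosome 2 (36230426 to 36252272, plus strand, GRCm38), and the values sum reads over its exons, of which 3.81% lie opposite exons of the predicted gene Gm43621.

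Ptgs2 varied more between libraries than between treatments. It was at 7.88, 9.55, 9.34 and 10.32 in NPC A to D, against 7.76, 9.58, 9.20 and 9.98 in PBS 1 to 4 (log2). The lowest library of each group was the one with low immediate-early genes, and the highest were NPC D and PBS 4. The reads behind these values numbered 960 to 8448 in NPC and 3417 to 14934 in PBS libraries, so counting error is small beside this spread. The span of 2.56 over the 8 libraries exceeded that of 99.4% of the 7696 genes with a mean log2 value of at least 3. The log2 fold change between groups was 0.15 (SE 0.50, interval -0.93 to 1.22, limma adjusted p = 0.938). That interval reaches past a 2-fold difference upward, so over the 8 libraries a change of that size could not be told from the spread. Without PBS 1 and NPC A the fold change was 0.15 as well (SE 0.25, interval -0.39 to 0.70, limma adjusted p = 0.850). These libraries had the lowest Ptgs2 value of their groups, so a narrower interval follows from leaving them out. It was therefore not used to judge a 2-fold difference. The fold change was -0.31 without PBS 1 alone, -0.20 without NPC D, 0.61 without NPC A and 0.43 without PBS 4.

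The promoter windows of both cyclooxygenase genes are shown because they differ in the motifs known from inducible genes. Both come from RefSeq (GRCm38.p6, plus strand) and run 5′ to 3′ from 250 bases before the annotated start through the first 30 bases after it, at chr1:150099781-150100060 for Ptgs2 and chr2:36230176-36230455 for Ptgs1. Capitals mark matches to any of 7 motifs searched on both strands.
Ptgs2: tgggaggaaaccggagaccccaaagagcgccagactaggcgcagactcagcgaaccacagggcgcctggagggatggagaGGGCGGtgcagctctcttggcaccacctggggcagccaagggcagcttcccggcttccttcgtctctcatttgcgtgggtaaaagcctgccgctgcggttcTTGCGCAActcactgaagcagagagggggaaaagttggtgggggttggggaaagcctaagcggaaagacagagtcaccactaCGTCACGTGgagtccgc
Ptgs1: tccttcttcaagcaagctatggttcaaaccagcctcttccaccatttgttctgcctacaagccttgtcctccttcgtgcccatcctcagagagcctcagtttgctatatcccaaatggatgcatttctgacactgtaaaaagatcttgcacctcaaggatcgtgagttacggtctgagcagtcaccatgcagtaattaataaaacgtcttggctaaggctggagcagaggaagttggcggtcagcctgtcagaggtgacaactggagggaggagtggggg
In the Ptgs2 window the capitals are, from left to right, a GC box (GGGCGG), a C/EBP palindrome (TTGCGCAA), and a CRE half-site (TGACG, on the opposite strand) that overlaps an E-box (CACGTG). Over the windows of 27025 genes these motifs occurred in 34.9%, 0.181%, 20.1% and 6.89%. The other motifs searched were an AP-1 site (TGANTCA, 7.57% of windows), a TATA box (TATAA, 24.7%) and the NF-kappaB consensus (7.68%), and the Ptgs2 window held none of them. The Ptgs1 window held 0 matches to the 7 motifs. Of the other genes with a window, Ptges held 2 GC boxes, Alox5 held 1 and Lta4h none of the 7. A match describes the letters of the window and is not evidence that a factor was bound. The absence of a match holds for the window alone, which was placed by the annotated start. Bases outside it were not searched, so the promoters may hold these motifs elsewhere.

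The balance of the cyclooxygenases followed Ptgs2. Per transcript length, Ptgs2 exceeded Ptgs1 1.81-fold, 6.66-fold, 5.22-fold and 9.39-fold in NPC A to D, against 2.18-fold, 7.09-fold, 5.04-fold and 6.60-fold in PBS 1 to 4. The groups overlapped, and the log2 ratio differed by 0.05 between them (2.94 ± 1.03 in NPC and 2.89 ± 0.78 in PBS libraries, not divided by length), and by 0.16 without PBS 1 and NPC A. Cyclooxygenase-2 message was the more abundant of the pair in every library.

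Genes with the profile most like that of Ptgs2 were looked for by the root-mean-square difference of gene-centred log2 values over the 8 libraries, among 7695 genes. The closest was Ccrl2, an atypical receptor that binds chemerin, at 0.12. Tob1, an antiproliferative protein of the BTG family, followed at 0.17. Plk2, a polo-like kinase, Gem, a small GTPase, and Thbs1, the matrix protein thrombospondin-1, were at 0.19 each. All 5 had their lowest values in NPC A and PBS 1, as Ptgs2 did, which follows from how they were chosen. Ccrl2 was at 7.23 in NPC A and 7.05 in PBS 1, against 8.91 to 9.54 in NPC B to D and 8.68 to 9.23 in PBS 2 to 4.

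**Figure D3:**
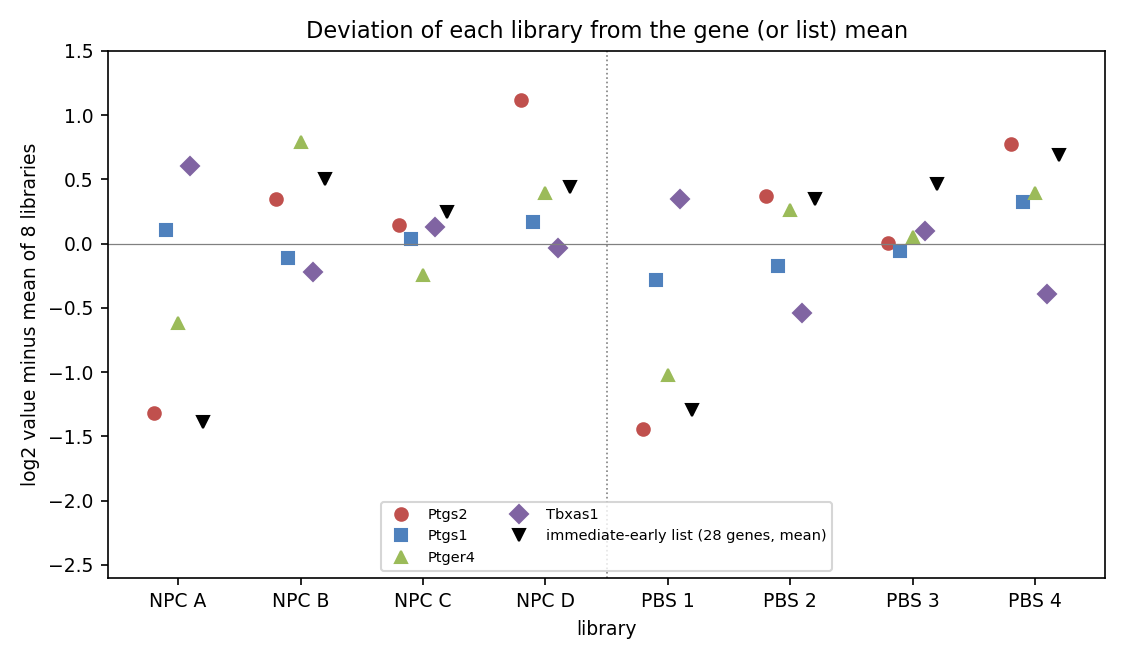
Deviation of each library from the mean over the 8 libraries (log2), for Ptgs2, Ptgs1, the prostaglandin receptor gene Ptger4, the thromboxane synthase gene Tbxas1 and the mean of 28 immediate-early and heat-shock genes. Ptgs2 and the list are low in NPC A and PBS 1, Tbxas1 is highest in those libraries, and Ptgs1 stays within 0.4 of its mean.

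Ptges, which acts downstream of Ptgs2 in making prostaglandin E2, was among the lower genes in NPC libraries without passing. It was at 2.33, 2.29, 2.20 and 2.88 in NPC A to D, against 3.60, 2.47, 2.68 and 3.32 in PBS 1 to 4 (log2), from 12 to 48 reads in NPC libraries and 59 to 191 in PBS libraries. NPC A to C lay under every PBS library, and NPC D lay within the PBS range. The log2 fold change was -0.59 (SE 0.27, interval -1.18 to -0.01, limma unadjusted p = 0.0460, adjusted p = 0.429), and 5.32% of all genes were lower at that unadjusted level. The size rested in part on PBS 1, the highest library: the fold change was -0.40 without it, -0.37 without PBS 1 and NPC A, and -0.39 with library weights (limma unadjusted p = 0.159, 0.212 and 0.177, adjusted p = 0.677, 0.653 and 0.486). After thinning to equal depth, which discards reads, the fold change was -0.54 with a wider SE of 0.36 (limma unadjusted p = 0.150, adjusted p = 0.659). With voom weights it was -0.51 (limma unadjusted p = 0.159, adjusted p = 0.546). The unadjusted p of Ptges was under 0.05 in 8 of 19 alternatives. Ptges did not share the library pattern of Ptgs2: NPC A was close to NPC B and C, and PBS 1 was high where Ptgs2 was low. The ratio of Ptgs2 to Ptges per length was 38.4, 126, 116 and 143 in NPC A to D and 14.6, 113, 75.5 and 82.4 in PBS 1 to 4, with overlapping groups. The closest profiles to Ptges were those of Dok2 (0.20), an adaptor that restrains kinase signalling, the chemokine gene Ccl6 (0.21), and Agpat9, Dok3 and Emilin2 (0.24, 0.25 and 0.26).

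Of the leukotriene genes, Alox5 was the only one of the 6 whose groups did not overlap, but it rested on few reads. It was at 0.43, 0.82, 0.85 and 0.67 in NPC A to D, against -0.58, -0.08, -0.13 and 0.22 in PBS 1 to 4 (log2). The log2 fold change was 0.84 (SE 0.36, interval 0.05 to 1.63, limma unadjusted p = 0.0390, adjusted p = 0.422). Non-overlapping groups with NPC higher occurred in 3.53% of all genes and in 4.11% of the 1459 genes with a mean log2 value under 1, where non-overlap with NPC lower occurred in 0.754%. An unadjusted p under 0.05 with NPC higher occurred in 6.17% of those low genes. Alox5 lies on chromosome 6 (116410077 to 116461178, minus strand), with no other annotated gene over its span.

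The reads behind Alox5 numbered 5, 4, 6 and 10 in NPC A to D, against 10, 18, 8 and 10 in PBS 1 to 4. Without the offset of 0.5 reads these were 1.23, 1.56, 1.67 and 1.52 reads per 1000000 in NPC A to D and 0.635, 0.919, 0.861 and 1.11 in PBS 1 to 4. The 4 NPC libraries were still above the 4 PBS libraries, yet the exact 95% Poisson intervals of single libraries overlapped: 0.426 to 4.00 in NPC B and 0.304 to 1.17 in PBS 1. Summed over each group there were 25 reads in NPC and 46 in PBS libraries, a ratio of 1.73 after division by library size (exact interval 1.02 to 2.88, counting error only). The log2 fold change was 0.78 without PBS 1 and NPC A (limma unadjusted p = 0.0792, adjusted p = 0.519). It was also 0.78 without the offset, 0.45 with 1 added on the linear scale and 0.43 after thinning every library to the depth of the shallowest (limma unadjusted p = 0.471, adjusted p = 0.853). The lowest value a library can hold, 0.5 reads, was worth -3.72 to -2.35 in NPC and -5.29 to -4.18 in PBS libraries (log2), and the median fold change of the 1459 low genes was 0.18, against 0.02 over all genes.

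Markers of other cell types were read in the same libraries. Of 11 neutrophil markers 8 were measured, summing to 278 to 338 reads per 1000000 in NPC and 223 to 298 in PBS libraries. Ly6g, Elane and Mpo are not in the table used here. Sum and mean log2 value disagreed in NPC D, which had the highest sum but the lowest mean of all libraries. The mean was 2.84 in NPC D, 3.99 to 4.16 in NPC A to C and 3.27 to 3.82 in PBS libraries. Of 10 mast cell and basophil markers 1 was measured, Hdc, at 2.70 to 6.40 reads per 1000000 in NPC libraries and 1.63 to 3.32 in PBS libraries. All 8 T cell markers were measured, summing to 78.2 to 107 in NPC and 63.9 to 74.4 in PBS libraries, which did not overlap. The mean log2 value of these 8 markers did overlap: NPC C, at 3.02, lay under PBS 1, at 3.11. Of 8 platelet and megakaryocyte markers 2 were measured, summing to 11.3 to 21.4 in NPC and 8.17 to 14.2 in PBS libraries. Of the lists of other cell types, the T cell list was the one whose groups did not overlap in summed reads. Those of microglia, oligodendrocytes and B cells are given above. Endothelial and conventional dendritic cell markers summed to 131 to 172 and 53.8 to 124 in NPC libraries. In PBS libraries they summed to 135 to 154 and 42.9 to 63.7. An unadjusted p under 0.05 was found for 2 of 8 T cell markers, Hdc and 1 of 2 platelet and megakaryocyte markers. It was found for 0 markers in the other lists of cell types, against 11.3% of all genes. The part of these cells, and of depth, in the Alox5 values was not tested. The closest profiles to Alox5 were those of Ppp1r9a, an actin-binding scaffold (0.19), Zfp677 (0.20), Arhgap5 (0.22), Inpp4b (0.22) and Dbf4 (0.22). With 4 to 10 Alox5 reads in NPC and 8 to 18 in PBS libraries, these distances include its counting error, so their order is uncertain.

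**Figure D4:**
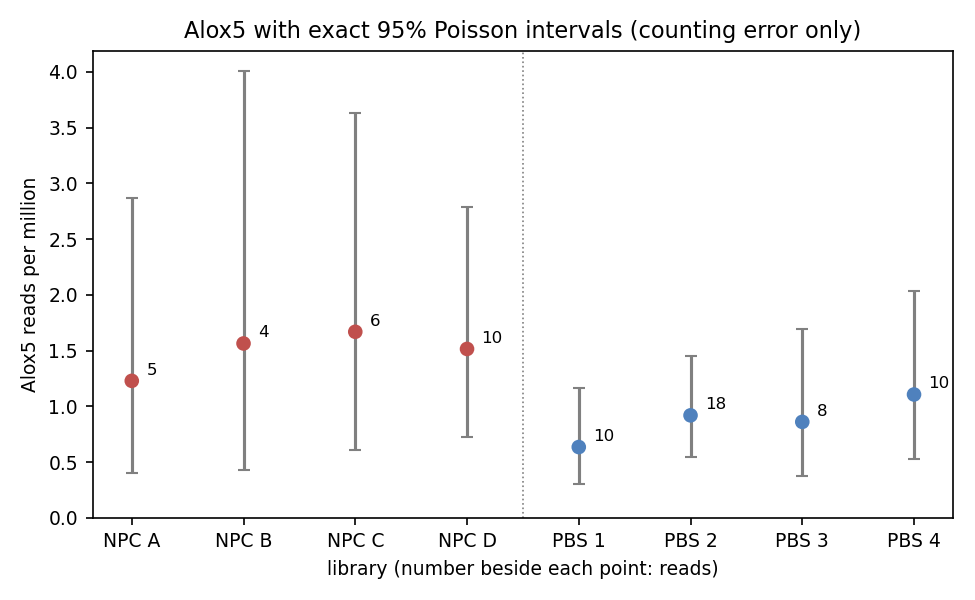
Alox5 reads per 1000000 in each library, with exact 95% Poisson intervals and the number of reads beside each point (NPC red, PBS blue). The NPC points lie above the PBS points, and the intervals overlap.

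Alox5ap and Lta4h, which act with and after 5-lipoxygenase, showed narrow spreads. Alox5ap was at 7.28, 7.66, 7.61 and 7.35 in NPC A to D, against 7.46, 7.69, 7.52 and 7.70 in PBS 1 to 4 (log2), from 515 to 1075 reads in NPC libraries and 1706 to 4045 in PBS libraries. NPC A and NPC D were the lowest libraries, and the groups overlapped. The log2 fold change was -0.12 (SE 0.12, interval -0.38 to 0.14, limma adjusted p = 0.746). Lta4h was at 4.18, 4.22, 4.35 and 4.54 in NPC A to D, against 4.28, 4.03, 4.16 and 4.08 in PBS 1 to 4 (log2). NPC D was the highest library, and PBS 1 lay among the NPC values. Its log2 fold change was 0.18 (SE 0.14, interval -0.11 to 0.48, limma adjusted p = 0.637), and -0.01 after thinning to equal depth, from 47 to 153 reads in NPC and 152 to 319 in PBS libraries as sequenced. Without PBS 1 and NPC A the fold changes were -0.10 for Alox5ap and 0.28 for Lta4h. Both intervals excluded a 2-fold difference in either direction. Exons of the antisense gene Gm19719 lie opposite 13.3% of the Alox5ap exons, and the sources used here do not say whether reads were counted by strand.

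**Figure D5:**
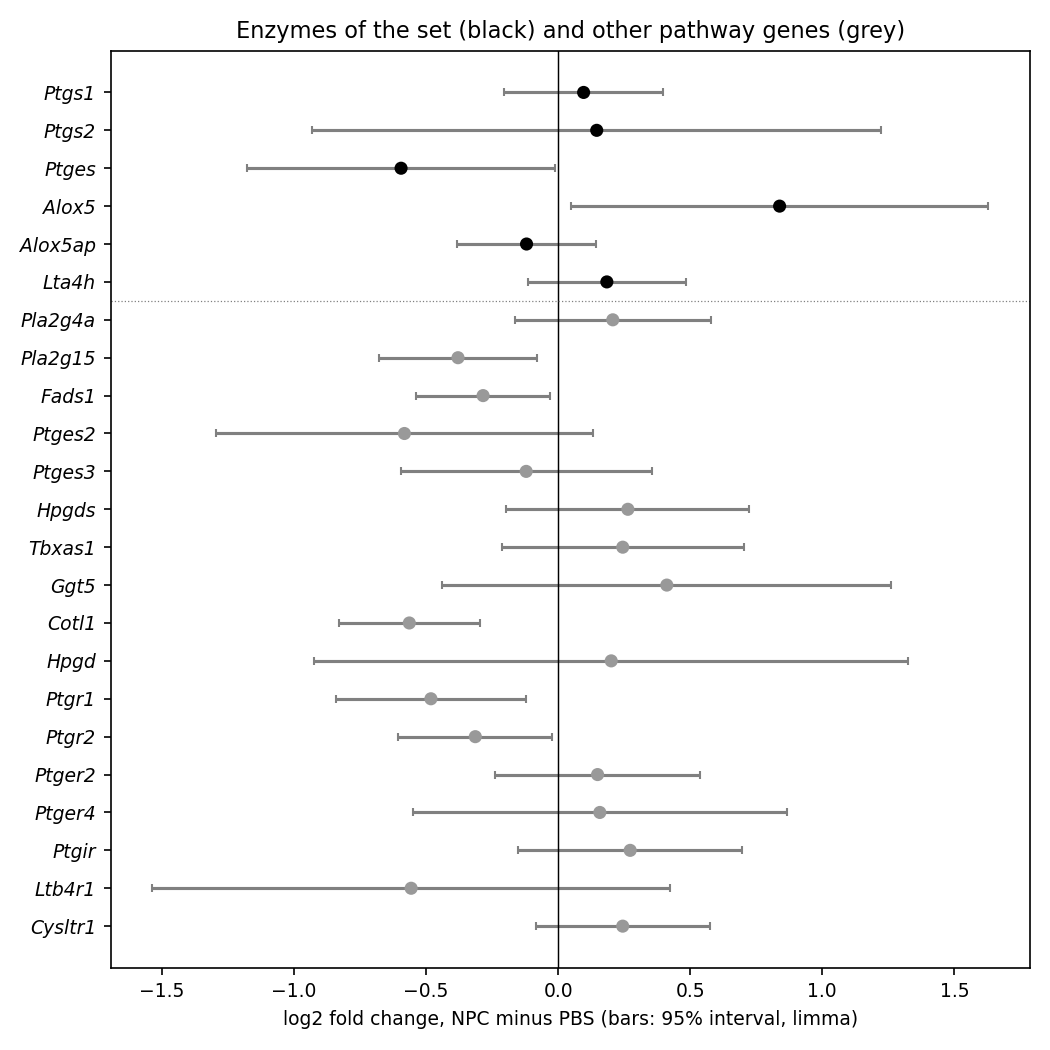
Log2 fold changes (NPC minus PBS) with 95% intervals from limma, for the 6 genes (black) and 17 other pathway genes (grey). None passed the adjusted threshold. The intervals of Alox5, Ptges, Cotl1, Ptgr1, Pla2g15, Ptgr2 and Fads1 exclude 0 before adjustment.

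Other genes of the pathway were read by role from a list of 73, of which 44 were measured. None passed over all genes. An unadjusted p under 0.05 was found for 5 of 44 (11.4%), about the share of all genes (11.3%). All 5 were lower in NPC libraries. Over all genes 5.32% were lower at that level and 6.00% higher, and of the 44 genes 0 were higher. The median log2 fold change was 0.08, against 0.02 over all genes, with 27 values above and 17 below 0. The count moved with the libraries used: it was 2 of 44 without NPC D and 3 of 44 without PBS 2, all lower. Over all genes it fell as well, from 1387 to 1067 without NPC D and 792 without PBS 2. It was 6 of 44 without PBS 1 (1079 over all genes) and 7 with library weights (2139 over all genes). Without NPC C 1 gene of the 44 was higher, and 1 without PBS 4.

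Upstream, where arachidonate is released and returned to membranes, 16 of 23 genes were measured. An unadjusted p under 0.05 was found for 2 (12.5%), against 11.3% of all genes. These 2 were lower in NPC libraries, as were 5.32% of all genes. Pla2g4a, the cytosolic phospholipase A2 that supplies cyclooxygenases and 5-lipoxygenase, averaged 6.41 ± 0.30 in NPC libraries and 6.21 ± 0.28 in PBS libraries (log2 fold change 0.21, interval -0.16 to 0.58). Pla2g15, a lysosomal phospholipase, averaged 4.87 ± 0.25 in NPC libraries and 5.25 ± 0.04 in PBS libraries, and its groups did not overlap (-0.38, SE 0.14, limma adjusted p = 0.390). Non-overlap with NPC lower occurred in 3 of the 44 pathway genes and in 3.25% of all genes. With NPC higher it occurred in 0 of the 44 and in 3.53% of all genes. Fads1, a desaturase on the route to arachidonic acid, averaged 5.46 ± 0.10 in NPC libraries and 5.74 ± 0.15 in PBS libraries (-0.28, SE 0.12, limma adjusted p = 0.413).

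Among the other prostanoid synthases 7 of 10 were measured and 0 had an unadjusted p under 0.05 in limma. Tbxas1, the thromboxane synthase, was at 7.70, 6.88, 7.23 and 7.07 in NPC A to D, against 7.45, 6.55, 7.19 and 6.71 in PBS 1 to 4 (log2). Its highest library in each group was the one where Ptgs2 was lowest, and the log2 fold change was 0.24 both with and without PBS 1 and NPC A. Hpgds, which makes prostaglandin D2 in blood cells, averaged 5.01 ± 0.29 in NPC libraries and 4.74 ± 0.44 in PBS libraries. The constitutive prostaglandin E synthase genes Ptges3 and Ptges2 were at 6.49 ± 0.47 and 1.00 ± 0.59 in NPC and 6.61 ± 0.33 and 1.58 ± 0.24 in PBS libraries. Ptgds is not in the table used here.

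On the leukotriene side 5 of 8 genes of the cysteinyl branch and of partners of 5-lipoxygenase were measured. Cotl1, a coactosin-like protein that binds actin and 5-lipoxygenase, was at 5.24, 5.50, 5.42 and 5.17 in NPC A to D, against 6.09, 5.78, 5.89 and 5.81 in PBS 1 to 4 (log2). All 4 NPC libraries lay under the PBS libraries, as did 3.25% of all genes, with a log2 fold change of -0.56 (SE 0.12, limma adjusted p = 0.382). Ggt5, a glutamyl transferase that processes leukotriene C4, averaged 1.07 ± 0.70 in NPC libraries and 0.66 ± 0.38 in PBS libraries. Ltc4s, the leukotriene C4 synthase, and the 6 listed lipoxygenases other than Alox5, Alox12 and Alox15 among them, are not in the table used here.

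Genes that inactivate or carry eicosanoids were measured for 9 of 11. An unadjusted p under 0.05 was found for 2 of these 9 (22.2%), against 11.3% of all genes. These 2 were lower in NPC libraries, as were 5.32% of all genes. Ptgr1 and Ptgr2, reductases that inactivate prostaglandin metabolites and, for Ptgr1, leukotriene B4, were at 3.54 ± 0.26 and 5.35 ± 0.22 in NPC and 4.02 ± 0.14 and 5.66 ± 0.13 in PBS libraries. Their log2 fold changes were -0.48 (SE 0.17, limma adjusted p = 0.390) and -0.31 (SE 0.13, limma adjusted p = 0.419). The groups of Ptgr1 did not overlap, as in 3.25% of all genes with NPC lower. Hpgd, the main prostaglandin dehydrogenase, was low and variable at 1.03 ± 1.02 in NPC and 0.83 ± 0.76 in PBS libraries.

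Receptors were measured for 7 of 15, and 0 had an unadjusted p under 0.05 in limma. Ptger4, a prostaglandin E2 receptor that raises cyclic AMP, was at 5.70, 7.10, 6.07 and 6.71 in NPC A to D, against 5.29, 6.58, 6.37 and 6.71 in PBS 1 to 4 (log2). The lowest library in each group was again NPC A and PBS 1, and the log2 fold change was 0.16 with them and 0.07 without them. Ptger2, the other receptor of that kind, averaged 3.89 ± 0.25 in NPC libraries and 3.74 ± 0.26 in PBS libraries, without that pattern. Ptgir, the prostacyclin receptor, averaged 2.71 ± 0.18 in NPC libraries and 2.44 ± 0.21 in PBS libraries. Cysltr1, a receptor for cysteinyl leukotrienes, averaged 5.98 ± 0.17 in NPC libraries and 5.74 ± 0.29 in PBS libraries, and Ltb4r1, the high-affinity receptor for leukotriene B4, averaged 1.14 ± 0.89 in NPC libraries and 1.70 ± 0.68 in PBS libraries.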

How the data were processed

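RNA of 8 sorted cell pools was amplified (Ovation RNA-Seq V2), given 12 PCR cycles and sequenced as single-end reads of 150 bases, per the labels' protocols. Trimmomatic, STAR 2.3.0, HTSeq 0.5.3, limma and the build mm10 are named in the submitters' processing notes. The authors deposited log2 normalised expression values per gene and library, not divided by length, and all columns were used. Their linear values are whole reads plus 0.5 in steps of 1 library (100% whole within 0.01), so reads per gene were recovered for depth, thinning, voom weights and Poisson intervals, which cover counting error only.

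Groups came from the sample titles, which pair no libraries. Each gene was fitted on the deposited log2 values with limma 3.58.1 in R 4.3.3 (treatment only, variance trend, two-sided, Benjamini-Hochberg over 12256 genes, threshold 0.05), and this fit was tested on simulated data. Transcript lengths, GC content and coordinates came from GENCODE vM21 (GRCm38), where 11368 symbols matched 1 gene. Promoter windows were found for 5 of the 6 genes.

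The genes and lists were chosen with earlier results of these data known. Named genes were the 6 enzymes, 16 pathway genes chosen by name where measured, the 2 of each role with the smallest p, and the 5 closest profiles (mean log2 of at least 3) for each enzyme spanning at least 1. The alternatives were other priors, weights, normalizations, filters and offsets, thinning, a GC and length correction, and leaving out libraries. Thinning was a single random draw of reads. Values without the 0.5 offset were added after seeing the data. P-values measure the spread between pools.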

Additional observations from a re-analysis of the deposited data

How the results depend on the processing

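No gene passed an adjusted p of 0.05 under any of 20 alternatives (limma), and neither did any of the 6 enzymes. Genes with an unadjusted p under 0.05 numbered 1387 as reported, 2139 with library weights, and 792 to 1846 with 1 library left out. That of other pathway genes was 5, and 2 to 6 with 1 library left out. Alox5, Ptges and Alox5ap kept their direction in all alternatives that kept the gene (Alox5 0.43 to 0.96, Ptges -0.78 to -0.37, Alox5ap -0.18 to -0.04). The filters on mean log2 removed Alox5 at 1 and both Alox5 and Ptges at 3. Signs turned for Ptgs2 with GC and length corrected (-0.055) and over left-out libraries (-0.31 to 0.61), for Ptgs1 without PBS 1 and NPC A (-0.0016), and for Lta4h after thinning (-0.011). Among pathway genes they turned for Cysltr1 with GC and length corrected (-0.055), for Hpgd and Ptger4 with library weights (-0.183 and -0.087) and over left-out libraries (Hpgd -0.26 to 0.55, Ptger4 -0.16 to 0.39), and for Ptges3 (-0.28 to 0.058). The cause was not tested. The ratio of Ptgs2 to Ptgs1 differed by -0.33 to 0.53 over left-out libraries, within the spread between libraries. Depth limited the named genes Alox5, Ptges2, Hpgd, Ggt5 and Ltb4r1 and, among unnamed pathway genes, Pla2g4b, Pla2g6, Pla2g2d, Pla2g12a, Cbr1, Mgst2, Mgst3 and Ephx1, which had fewer than 10 reads in at least 1 NPC library.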
